A study of Mus musculus with 20 samples.

Results

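Chemokines are small secreted proteins that direct the movement of leukocytes, and their expression, together with that of their receptors, was examined in 3 genotypes of mouse pancreatic ductal adenocarcinoma. The members were protein-coding genes of the deposited expression table whose mouse symbol is Ccl, Cxcl, Ccr or Cxcr followed by a number, plus Cx3cl1 and Cx3cr1. They came to 45 of 20636 genes, 32 ligands and 13 receptors. Of these, 40 (30 ligands and 10 receptors) reached a mean of 10 normalized counts over the tumours and were tested among 16648 genes. A normalized count is the deposited, library-scaled value multiplied by 1 common factor, so that it is on the scale of reads in a typical library. RNA sequencing had been done on whole tumours of acinar cell origin, so that a lower level cannot be told apart from fewer cells of the type that makes the transcript. KPAT tumours (5 tumours) carried KrasLSL-G12D with Trp53fl/fl and Arf-fl/fl, KAT tumours (5 tumours) carried KrasLSL-G12D with Arf-fl/fl, and KPT tumours (5 tumours) carried KrasLSL-G12D with Trp53fl/fl. All of them also had the Rosa26LSL-tdTomato/LSL-tdTomato reporter and the Ptf1aCreER driver, a tamoxifen-dependent Cre recombinase active in pancreatic acinar cells. Mice received 5 mg of tamoxifen by gavage daily for 3 days, starting at an age of 8 to 10 weeks, then lived until they became moribund, and individual ages at collection were not used here. Cre activity was directed to acinar cells and their descendants, and fibroblasts, vessels and leukocytes of the tumour lie outside that lineage. A KT group with neither floxed allele (5 tumours) was not analysed here.

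Chemokines are grouped by the spacing of their first cysteines into CC, CXC and CX3C ligands, and they act through G protein-coupled receptors named for the ligand family. A receptor largely sets which leukocyte answers: CCR2 marks inflammatory monocytes, CXCR2 neutrophils, CCR7 mature dendritic cells and naive T cells, and CXCR3 and CXCR6 activated T cells. In pancreatic cancer the CCR2 and CXCR2 axes are known as routes by which monocytes and neutrophils enter the tumour, and stromal CXCL12 is known for its link to T cell exclusion.

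The whole table held 14696138 to 26248484 reads per tumour, and Spearman correlations over genes were 0.934 to 0.989 between tumours of one genotype and 0.903 to 0.973 between genotypes. Trp53, the floxed gene of 2 of the genotypes, had 817 ± 186 normalized counts in KPAT tumours and 473 ± 34.6 in KPT tumours, against 2429.7 ± 390.2 in KAT tumours (mean ± SD, n = 5 each). The gene-level count of Cdkn2a also covers exons shared with Ink4a, so it does not test the Arf allele. Ductal markers were abundant in every tumour, as the label of ductal adenocarcinoma implies: the mean log2 level of 8 such genes, Krt19 and Epcam among them, lay between 13.5 and 14.99. An intestinal epithelial list of 7 genes reached 11.88 in KAT 1 and 11.89 in KPT 1, against 5.62 to 10.2 in the other tumours, and a lymph node list reached 7.49 in KAT 1 and 6.6 in KAT 3, against 2.82 to 5.71 in the others. No tested marker was at 0 in all tumours of a genotype. The labels number the tumours separately within each genotype, so p-values measure the spread between these tumours. The library names of the 3 genotypes do not overlap and no preparation date is given, so a difference between preparation runs and genotype cannot be told apart.

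Most of the chemokine and receptor transcripts that passed the test were higher in KPAT and KAT tumours than in KPT tumours. In KPAT against KPT tumours 10 of 40 members passed an adjusted p of 0.05 (limma, Benjamini-Hochberg over all 16648 tested genes), 8 higher and 2 lower. That is 25% of the members, against 16.5% of all tested genes, split into 20% higher and 5% lower, against 9.13% and 7.4% of all tested genes. In KAT against KPT tumours 19 of 40 members (47.5%) passed, 17 higher (42.5%) and 2 lower (5%), against 28.9% of all tested genes, with 15.6% higher and 13.3% lower. The median log2 fold change of the members was 0.23 in KPAT against KPT tumours and 1.27 in KAT against KPT tumours, where the medians of all tested genes were 0.02 and 0.03. With 1 tumour left out the first lay between 0.04 (without KPT 3) and 0.39 (without KPAT 5), and it moved by over 1.5 times also without KPAT 1, KPAT 3, KPAT 4, KPT 4 or KPT 5 (0.14 to 0.38), whereas the second lay between 1.05 and 1.42. In KAT against KPT tumours 8597 of all 16648 tested genes had a positive log2 value. All 10 tested receptors did, and 6 of these receptors passed. Among those that passed, Ccr6 and Cxcr6 reached the minimum mean only through KAT tumours. In KPAT against KAT tumours no member passed with limma, where 0.0481% of all tested genes did (0.036% higher and 0.012% lower). Here 13 members had an unadjusted p under 0.05, 2 higher and 11 lower, against 10.8% of all tested genes (4.79% higher and 6.01% lower). edgeR called 0 members and 0.042% of all genes (0.036% higher and 0.00601% lower), and DESeq2 called 5 members, all lower, and 1.72% of all genes (0.594% higher and 1.13% lower). Both comparisons with KPT tumours use the same 5 KPT tumours.

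**Figure D1:**
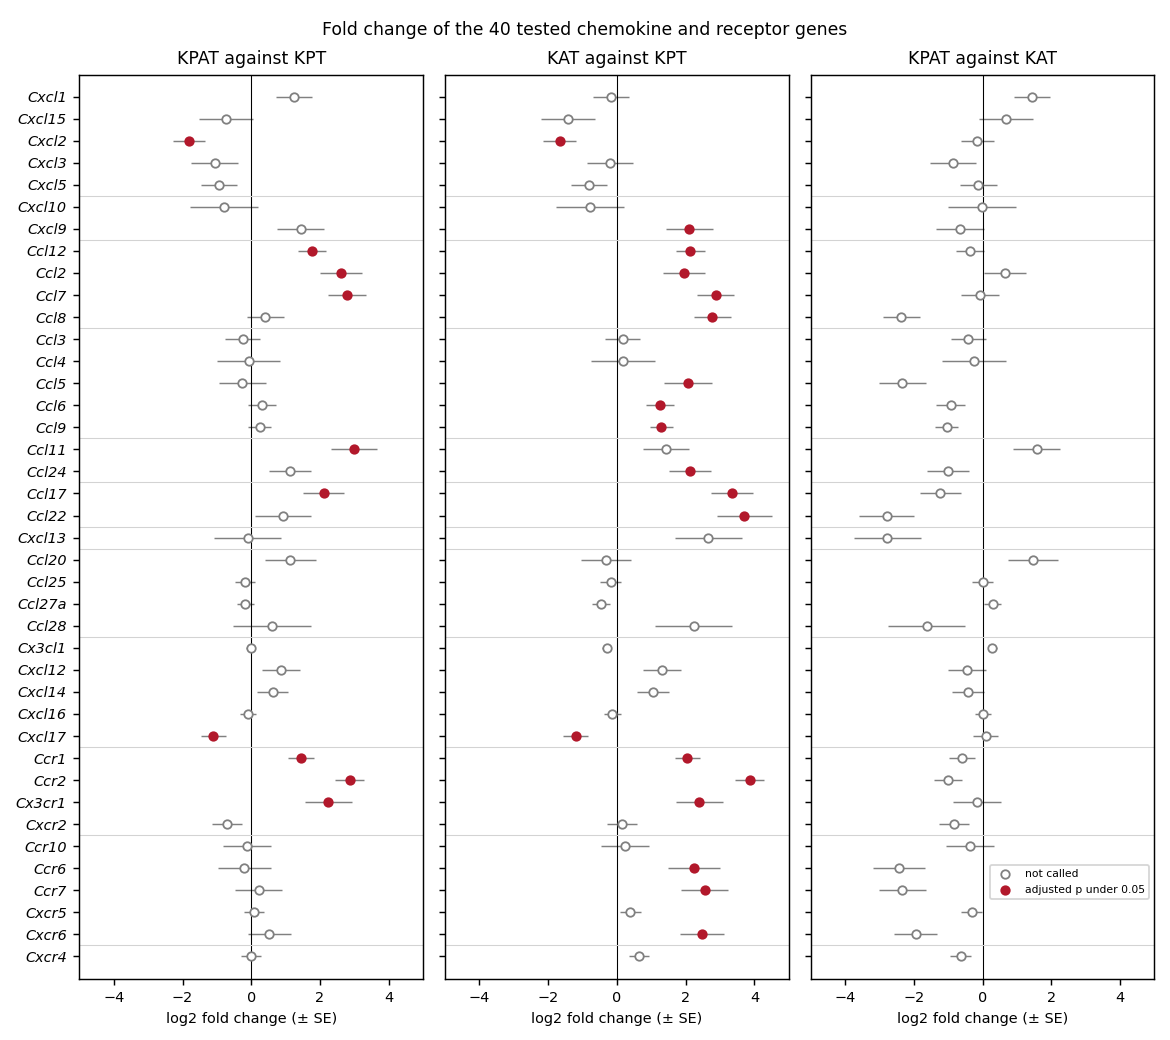
Log2 fold change (horizontal axis, ± SE) of the 40 tested members, grouped by role from the CXCR2 ligands at the top to the receptors at the bottom, in KPAT against KPT, KAT against KPT and KPAT against KAT tumours (n = 5 each). Filled points pass an adjusted p of 0.05. There are 10 in the first panel, 19 in the second and none in the third.

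Groups that did not overlap at all were less frequent. In KPAT against KPT tumours 6 members (15%) had all 5 KPAT tumours above all 5 KPT tumours, against 5.03% of tested genes (9.97% in either direction), namely Ccr2, Ccl7, Ccl11, Ccl12, Ccl2 and Cx3cr1. In KAT against KPT tumours 7 members (17.5%) did so, against 9.24% of tested genes (17.6% in either direction). They were Ccr2, Ccl17, Ccr1, Ccl8, Ccl12, Ccl22 and Cxcr6, the last tested only because of its KAT values. No member lay wholly below KPT tumours in either comparison, as 4.93% and 8.38% of tested genes did. KPAT and KAT tumours overlapped in all 40 members, whereas 2.72% of tested genes did not overlap between them, 1.42% with KPAT tumours above and 1.3% below. The median within-genotype SD of the members was 0.95 on the log2 scale, against 0.39 for all tested genes. The genes were not matched for level, and the part of low counts in this difference was not tested. Cx3cl1 was the least variable member, with an SD of 0.21, and Ccl28 the most variable, with 1.98.

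Per kilobase of exon, 6 ligands had the highest levels in the mean over the 15 tumours, although not in each genotype. Ccl6, a rodent ligand of CCR1, had 2773 normalized counts per kilobase, Cxcl17, a mucosal epithelial chemokine, 1139, and Cxcl14, an epithelial and stromal chemokine, 997. Cxcl5, a neutrophil attractant, had 754, Ccl17, a ligand of CCR4, 702, and Cx3cl1, the membrane-bound fractalkine, 696. In KPAT tumours Cxcl16 (587) was above Cxcl5 (501). In KAT tumours Cxcl13 (904) and Ccl9 (662) were above Cxcl5 (649) and Cx3cl1 (607). In KPT tumours Cxcl17 (1865) was above Ccl6 (1789), and Ccl17 had 148. As a share of the summed level per kilobase of all ligands, Ccl6 made up 24.8% in KPAT tumours, 33.0% in KAT tumours and 22.2% in KPT tumours on average. Cxcl17 and Cxcl5 had smaller shares in KPAT and KAT tumours. Cxcl17 averaged 9.63% in KPAT and 6.15% in KAT tumours, against 22.4% in KPT tumours, and Cxcl5 averaged 6.17% in KPAT and 5.37% in KAT tumours, against 13% in KPT tumours. Ccl17 had larger shares there, with 7.29% in KPAT and 10.2% in KAT tumours, against 1.87% in KPT tumours. Ccl11 averaged 4.47% in KPAT tumours and 0.831% in KAT tumours, against 0.496% in KPT tumours. These shares are a description and were not tested.

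**Figure D2:**
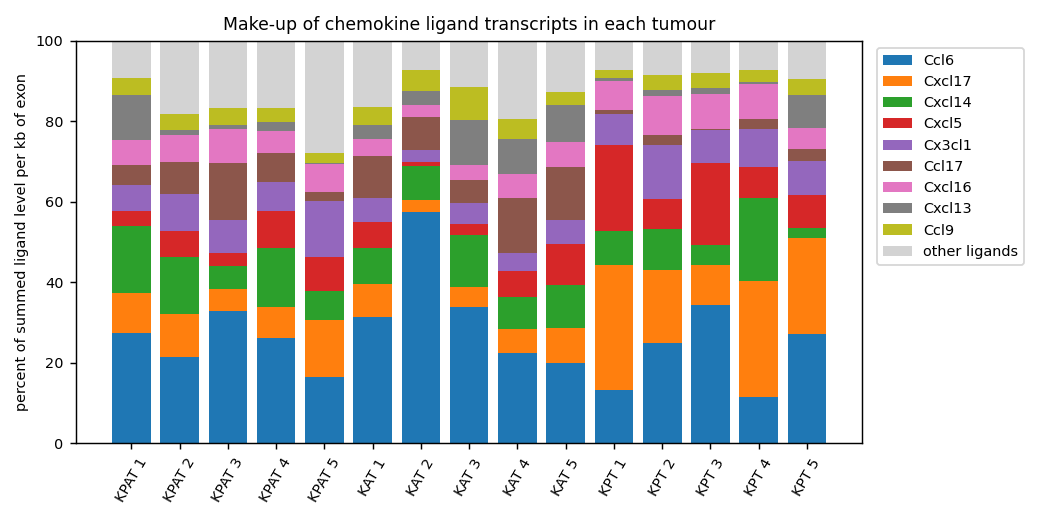
Share of each ligand (vertical axis, percent) in the summed level per kilobase of exon of all member ligands, 1 bar per tumour, with KPAT tumours on the left, KAT tumours in the middle and KPT tumours on the right. Ccl6 is the lowest block and reaches 57.4% in KAT 2. Cxcl17 reaches 31.3% in a KPT tumour, and its highest share is 14.3% in KPAT tumours and 8.81% in KAT tumours.

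The ligands of CCR2, which call inflammatory monocytes out of the blood, were the ligands with the most calls. The list of 4 also holds Ccl8, which in mouse is known for another receptor. In KPAT against KPT tumours 3 of 4 rose, all but Ccl8 (75%, against 9.13% of all tested genes). In KAT against KPT tumours 4 of 4 rose, Ccl8 among them (100%, against 15.6%). The median log2 fold changes were 2.19 and 2.46. The 4 genes lie with Ccl11 in one cluster of 81.2 kb on mouse chromosome 11 (GRCm38, chr11:82035571-82116799). Ccl2 had 203, 440.2, 495, 137 and 203 normalized counts in KPAT tumours 1 to 5 and 152, 179, 48.8, 397 and 230.0 in KAT tumours 1 to 5, against 37.1, 18.7, 16.8, 94.3 and 112 in KPT tumours 1 to 5. Ccl2 (MCP-1) is the main monocyte attractant of the group. Each KPAT tumour was above each KPT tumour, whereas KAT 3 was below KPT 4 and KPT 5. Ccl2 rose in both, with a log2 fold change of 2.62 ± 0.61 and adjusted p = 0.012 in KPAT against KPT tumours and with a log2 fold change of 1.95 ± 0.61 and adjusted p = 0.0273 in KAT against KPT tumours. Ccl7 had 67.9, 141, 81.7, 54.9 and 49.8 normalized counts in KPAT tumours 1 to 5 and 62.1, 72.7, 23.4, 241 and 110.2 in KAT tumours 1 to 5, against 6.84, 6.23, 5.26, 14.6 and 25.2 in KPT tumours 1 to 5. Ccl7 (MCP-3) is a second CCR2 ligand and also acts on CCR1. Its KPAT and KPT values were apart, and of the KAT tumours only KAT 3 was below the highest KPT tumour. The log2 fold change of Ccl7 was 2.79 ± 0.55 (SE, adjusted p = 0.00611) in KPAT against KPT tumours and 2.87 ± 0.55 (adjusted p = 0.00212) in KAT against KPT tumours. Ccl12 had 48.2, 64.2, 41.4, 84.9 and 46.2 normalized counts in KPAT tumours 1 to 5 and 45.6, 94.1, 41.7, 138 and 74.9 in KAT tumours 1 to 5, against 14.7, 9.96, 37.8, 9.43 and 16.5 in KPT tumours 1 to 5. Ccl12 (MCP-5) is a mouse CCR2 ligand. Its 10 values in KPAT and KAT tumours were all above the highest KPT value of 37.8, in KPT 3. Ccl12 rose by 1.77 ± 0.41 in KPAT tumours (adjusted p = 0.0116) and by 2.14 ± 0.41 in KAT tumours (adjusted p = 0.00203), both against KPT tumours on the log2 scale. Ccl8 had 25.6, 50.5, 38.2, 20.9 and 34.4 normalized counts in KPAT tumours 1 to 5 and 139, 49.2, 323, 491 and 134 in KAT tumours 1 to 5, against 18.6, 18.7, 35.7, 13.7 and 46.9 in KPT tumours 1 to 5. Ccl8 (MCP-2) is listed with this group, although in mouse it is known as a ligand of CCR8. KPAT and KPT values overlapped, and every KAT tumour was above every KPT tumour. Ccl8 rose in KAT against KPT tumours (log2 fold change of 2.78 ± 0.53, adjusted p = 0.00194) and had a log2 fold change of 0.41 ± 0.53 in KPAT against KPT tumours (adjusted p = 0.628). The call of Ccl2 in KAT against KPT tumours ended without any one of KAT 4, KAT 5, KPT 1, KPT 2 or KPT 3, with adjusted p of 0.0517 to 0.0729, and also under quantile scaling (0.059). Over 29 alternatives that adjusted p lay between 0.00394 and 0.0737, whereas the calls of Ccl2, Ccl7 and Ccl12 in KPAT against KPT tumours held in all 29.

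Of 4 tested receptors of monocytes, macrophages and granulocytes, 3 (75%) rose in each comparison with KPT tumours. All tested genes gave 9.13% higher in KPAT and 15.6% higher in KAT tumours. Ccr1 and Ccr2 lie with Ccr9 and Cxcr6 in one stretch of chromosome 9 (GRCm38, chr9:123678439-124113557). Ccr2 had 491, 520.3, 501, 383 and 357 normalized counts in KPAT tumours 1 to 5 and 1253, 618, 433, 1765 and 944 in KAT tumours 1 to 5, against 76.2, 31.1, 47.3, 45.5 and 156 in KPT tumours 1 to 5. Ccr2, the receptor of Ccl2, Ccl7 and Ccl12, had the smallest adjusted p of all members in both comparisons. The lowest KPAT or KAT value was 357, in KPAT 5, and the highest KPT value was 156, in KPT 5. The log2 fold change of Ccr2 was 2.86 ± 0.41 (SE, adjusted p = 0.0019) in KPAT against KPT tumours and 3.86 ± 0.41 (adjusted p = 9.22e-05) in KAT against KPT tumours. Ccr1 had 614, 688, 774, 374 and 289 normalized counts in KPAT tumours 1 to 5 and 634, 1115, 610.2, 1017 and 639.8 in KAT tumours 1 to 5, against 108, 115, 224, 184 and 447 in KPT tumours 1 to 5. Ccr1 is a receptor of monocytes, macrophages and neutrophils. KAT and KPT tumours did not overlap, while KPAT 4 and KPAT 5 were below KPT 5. It rose by 1.45 ± 0.37 (adjusted p = 0.0176) in KPAT and by 2.05 ± 0.37 (adjusted p = 0.00147) in KAT against KPT tumours on the log2 scale. Cx3cr1 had 342, 484, 225, 213 and 443 normalized counts in KPAT tumours 1 to 5 and 437, 263, 42.7, 1138 and 1091 in KAT tumours 1 to 5, against 106, 48.6, 71.5, 41.2 and 92.9 in KPT tumours 1 to 5. Cx3cr1 is the fractalkine receptor of macrophages and patrolling monocytes. All KPAT tumours were above the KPT tumours, and KAT 3 lay within the KPT range. Cx3cr1 rose by 2.24 ± 0.69 (adjusted p = 0.0376) in KPAT and by 2.40 ± 0.69 (adjusted p = 0.0178) in KAT against KPT tumours on the log2 scale. Cxcr2, the neutrophil receptor and the remaining tested member of the group, ranged over 15.4 to 78.5 normalized counts in KPAT tumours, 44.9 to 94.1 in KAT tumours and 37.7 to 120.2 in KPT tumours, and passed in neither comparison. The Cx3cr1 call in KPAT against KPT tumours ended without any one of KPAT 1, 2, 3 or 5 or KPT 1, 2, 3 or 4 (adjusted p of 0.0508 to 0.0853), under quantile scaling (0.0659) and with array weights (0.0655). Its adjusted p lay between 0.00166 and 0.0853 over 29 alternatives, and that of Ccr1 in the same comparison between 0.00419 and 0.0519, the highest with KPT 1 and KAT 1 left out together.

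**Figure D3:**
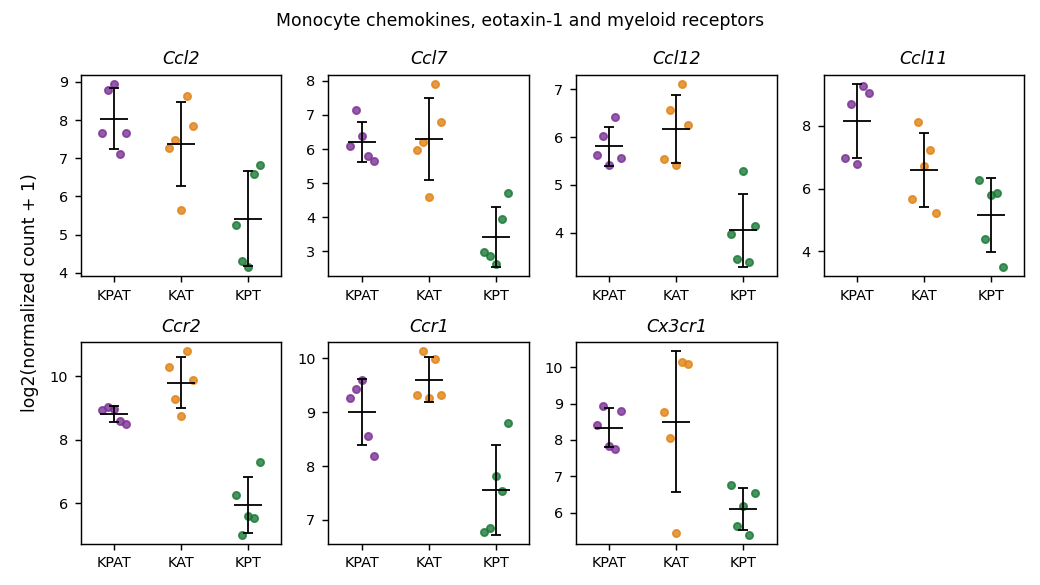
Level of 4 ligands (top row) and 3 receptors (bottom row) as log2(normalized count + 1) on the vertical axis, by genotype, with 1 point per tumour and bars for mean ± SD (n = 5 each). KPAT tumours lie above all KPT tumours for Ccl2, Ccl7, Ccl12, Ccl11, Ccr2 and Cx3cr1. KAT tumours lie above all KPT tumours for Ccl12, Ccr2 and Ccr1.

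Calls were also counted for marker lists of macrophages and monocytes. Of 10 macrophage markers 4 (40%) were higher in KPAT and 7 (70%) in KAT against KPT tumours, and none was lower. All tested genes gave 9.13% higher and 7.4% lower in KPAT, and 15.6% and 13.3% in KAT against KPT tumours. The summed level of the macrophage markers was 12064 to 22540 normalized counts in KPAT tumours and 18360 to 38053 in KAT tumours, against 9339 to 14731 in KPT tumours. Of the 5 markers of monocytes 0 were higher and 1 lower in KPAT against KPT tumours, and 1 was higher and 1 lower in KAT against KPT tumours. Their summed level ranged over 8266 to 14805 in KPAT, 3862 to 50525 in KAT and 10825 to 23471 in KPT tumours. The part of either list in the changes of the ligands and receptors was not tested.

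Eotaxins, which attract eosinophils through CCR3, gave 1 call in each comparison with KPT tumours, for a different gene each time. Ccl11 had 126, 411, 110.4, 621 and 532 normalized counts in KPAT tumours 1 to 5 and 50.2, 278, 104, 150.1 and 36.4 in KAT tumours 1 to 5, against 77.2, 19.9, 54.7, 56.6 and 10.4 in KPT tumours 1 to 5. Ccl11 (eotaxin-1), a fibroblast product in many tissues, was at least 110.4 in all KPAT tumours and at most 77.2 in KPT tumours, while KAT tumours overlapped both. It rose in KPAT against KPT tumours (log2 fold change of 3.00 ± 0.67, adjusted p = 0.01), a call that held in all 29 alternatives. In KAT against KPT tumours its log2 fold change was 1.43 ± 0.67 (adjusted p = 0.123), and the difference between KPAT and KAT tumours was 1.57 ± 0.67 (adjusted p = 0.419). Ccl24 (eotaxin-2) had a median of 39.7 normalized counts in KPAT tumours (19.6 to 86), 70.2 in KAT tumours (49.3 to 251) and 12.5 in KPT tumours (8.41 to 69.4). Ccl24 rose in KAT against KPT tumours (log2 fold change of 2.12 ± 0.61, adjusted p = 0.0192), with overlap through KPT 5, and the call ended without KAT 4, the highest tumour (1.73, adjusted p = 0.054; 0.00259 to 0.054 over 29 alternatives). Of 3 tested markers of eosinophils, basophils and mast cells 1 was higher in KPAT and 2 in KAT against KPT tumours. Summed over the 5 listed markers with values, tested or not, the level was 560.0 to 4526 in KPAT and 650.0 to 4070.0 in KAT tumours, against 98.7 to 326 in KPT tumours. Fibroblast markers were also higher, 5 of 8 in KPAT and 8 of 8 in KAT against KPT tumours, with summed levels of 94160.0 to 262355 in KPAT and 119550.0 to 180790.0 in KAT tumours, against 16786 to 75855 in KPT tumours. All tested genes gave 9.13% higher in KPAT and 15.6% higher in KAT against KPT tumours. The part of these marker lists in the eotaxin values was not tested.

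Ccl17 and Ccl22, made mainly by dendritic cells and macrophages, attract regulatory and type 2 helper T cells through CCR4, and both rose in KAT tumours. Ccl17 had 274, 406, 649, 289 and 64 normalized counts in KPAT tumours 1 to 5 and 535, 644, 351, 1031 and 786 in KAT tumours 1 to 5, against 54.7, 68.5, 15.8, 90.9 and 151 in KPT tumours 1 to 5. Every KAT tumour was above every KPT tumour, and of the KPAT tumours only KPAT 5 lay within the KPT range. Ccl17 rose in both comparisons with KPT tumours, with a log2 fold change of 2.11 ± 0.60 and adjusted p = 0.0269 in KPAT and with a log2 fold change of 3.35 ± 0.60 and adjusted p = 0.00136 in KAT tumours. Ccl22 had 17.7, 54.8, 32.9, 30.1 and 2.37 normalized counts in KPAT tumours 1 to 5 and 248, 43.8, 75.3, 179.7 and 377 in KAT tumours 1 to 5, against 8.79, 6.23, 2.1, 18 and 35.6 in KPT tumours 1 to 5. The lowest KAT value, in KAT 2, was above the highest KPT value, in KPT 5, and KPAT tumours overlapped both. Ccl22 rose in KAT against KPT tumours (log2 fold change of 3.71 ± 0.81, adjusted p = 0.00436) and had a log2 fold change of 0.92 ± 0.81 in KPAT against KPT tumours (adjusted p = 0.462). Both genes lie with Cx3cl1 within 66.4 kb of chromosome 8 (GRCm38, chr8:94745590-94812036), and Cx3cl1 between them did not pass in any comparison. The Ccl17 call in KPAT against KPT tumours ended without any one of KPAT 2, KPAT 3, KPT 1 or KPT 3 (adjusted p of 0.0552 to 0.0668) and when only the 2 compared genotypes were fitted (0.0601). Its adjusted p lay between 0.000984 and 0.0668 over 29 alternatives.

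**Figure D4:**
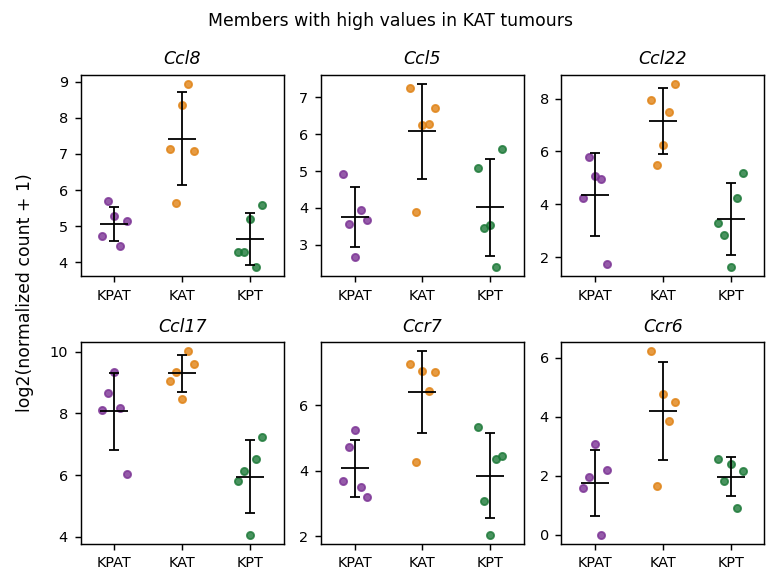
Level of Ccl8, Ccl5, Ccl22, Ccl17, Ccr7 and Ccr6 as log2(normalized count + 1) on the vertical axis, by genotype, with 1 point per tumour and bars for mean ± SD (n = 5 each). KAT tumours lie above all KPT tumours for Ccl8, Ccl22 and Ccl17. For Ccl5, Ccr7 and Ccr6 KAT 2 is the lowest KAT tumour and lies within the KPT range.

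Receptors of lymphocytes and dendritic cells rose in KAT against KPT tumours in 3 of 5 tested cases (60%). In KPAT against KPT tumours 0 of 5 rose. Of all tested genes 15.6% were higher in KAT and 9.13% in KPAT tumours. Ccr6 and Cxcr6 reached the minimum mean of 10 only through KAT tumours. Their means were 27.3 and 28.0 there, against 3.17 and 7.95 in KPAT and 3.18 and 4.00 in KPT tumours. Their calls in KAT tumours therefore depend in part on the filter. Cxcr6 had 4.92, 13, 18, 2.61 and 1.18 normalized counts in KPAT tumours 1 to 5 and 11.9, 13.9, 26.4, 44.9 and 42.8 in KAT tumours 1 to 5, against 3.91, 3.74, 6.31, 0.858 and 5.21 in KPT tumours 1 to 5. Cxcr6, the receptor of Cxcl16 on activated T cells, was higher in every KAT tumour than in any KPT tumour, and KPAT tumours overlapped both. It rose in KAT against KPT tumours (log2 fold change of 2.48 ± 0.63, adjusted p = 0.0102) in all alternatives that gave a value. Ccr7 had 11.8, 25.3, 37.1, 10.5 and 8.29 normalized counts in KPAT tumours 1 to 5 and 153, 18.2, 131, 85.6 and 128 in KAT tumours 1 to 5, against 39.1, 7.47, 3.15, 19.7 and 20.8 in KPT tumours 1 to 5. Ccr7 is the lymph node homing receptor, and of the KAT tumours KAT 2 alone overlapped the others. Ccr7 rose in KAT against KPT tumours (log2 fold change of 2.55 ± 0.68, adjusted p = 0.0125), and the call ended with KAT 1 and KAT 3 left out together (2.05, adjusted p = 0.0868; 0.000824 to 0.0868 over 28 alternatives). Ccr6, the receptor of Ccl20 on B cells and T helper cells, had a median of 2.89 in KPAT tumours (0 to 7.43), 21.4 in KAT tumours (2.14 to 73) and 3.47 in KPT tumours (0.858 to 4.89), again with KAT 2 lowest among KAT tumours. No Ccr6 read was counted in KPAT 4, and a count of 0 allows up to 3 reads. Ccr6 rose in KAT against KPT tumours (log2 fold change of 2.24 ± 0.76, adjusted p = 0.0383), but the call ended without any one of KAT 3, KAT 4, KAT 5, KPT 2, KPT 3, KPT 4 or KPT 5 (adjusted p of 0.0507 to 0.0813; 0.00221 to 0.0903 over 25 alternatives). Ccr10 and Cxcr5, receptors of skin homing T cells and of follicular B cells, did not pass in any comparison.

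Among ligands that act on lymphocytes, Ccl5 and Cxcl9 rose in KAT against KPT tumours. Ccl5 (RANTES), made by T cells and natural killer cells, had a median of 11.8 normalized counts in KPAT tumours (5.31 to 29.5), 77.1 in KAT tumours (13.9 to 152) and 10.5 in KPT tumours (4.29 to 47.7). KAT 2 was the lowest KAT tumour. Ccl5 rose in KAT against KPT tumours (log2 fold change of 2.07 ± 0.69, adjusted p = 0.0356) and had a log2 fold change of −0.26 ± 0.69 in KPAT against KPT tumours (adjusted p = 0.828). The call ended without any one of KAT 1, KAT 3, KAT 4, KAT 5, KPT 2, KPT 3 or KPT 4 (adjusted p of 0.0662 to 0.0821; 0.00372 to 0.172 over 28 alternatives). Cxcl9, an interferon-gamma induced ligand of CXCR3, had a median of 17.8 in KPAT tumours (6.53 to 45.5), 34.6 in KAT tumours (5.35 to 105) and 4.21 in KPT tumours (3.43 to 19.1). Cxcl9 rose in KAT against KPT tumours (log2 fold change of 2.11 ± 0.69, adjusted p = 0.0328), and KAT 2 lay within the KPT range. That call ended without any one of KAT 1, KAT 3, KAT 4 or KPT 1 to 4 (adjusted p of 0.0596 to 0.0795; 0.00509 to 0.195 over 28 alternatives). Cxcl10, the other tested ligand of CXCR3, lies with Cxcl9 in a 27.5 kb cluster on chromosome 5 and did not pass. Its median was 14.4 in KPAT, 24.4 in KAT and 15.4 in KPT tumours. Cxcl13, which draws B cells into follicles, spanned 13 to 1385 normalized counts in KPAT tumours, 405 to 1527 in KAT tumours and 55.7 to 890.4 in KPT tumours, and was just short of the threshold in KAT against KPT tumours (log2 fold change of 2.66 ± 0.97, adjusted p = 0.0508). Chosen after its values were seen, Cxcl13 passed without any one of KPAT 1, KPAT 5, KAT 1 or KPT 5, with adjusted p of 0.0182 to 0.0482 (0.00798 to 0.145 over 29 alternatives).

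Markers of lymphoid cells varied among the KAT tumours. The mean log2 level of 6 T cell markers was 1.85 to 3.61 in KPAT tumours, 5.32 to 6.24 in 4 KAT tumours and 2.85 in KAT 2, against 2.62 to 5.03 in KPT tumours. Of these 6 markers 0 passed in KPAT and 1 was higher in KAT against KPT tumours. Summed over all 8 listed T cell markers, tested or not, the level was 48.6 to 135 in KPAT and 72.7 to 567 in KAT, against 78.9 to 246 in KPT tumours. Of 6 tested dendritic cell markers 1 was higher in KPAT and 5 in KAT against KPT tumours. Summed over all 7 listed dendritic cell markers, the level was 186 to 325 in KPAT and 205 to 702 in KAT, against 122 to 217 in KPT tumours. Of 7 B and plasma cell markers 0 passed in KPAT and 1 was higher in KAT against KPT tumours, with summed levels of 339 to 8305 in KPAT and 309 to 11670.0 in KAT, against 570.0 to 4962 in KPT tumours. The lymph node list, 4 tested genes such as Cr2 and Cd37, gave 0 higher in KPAT and 1 higher in KAT against KPT tumours, with summed levels of 86.5 to 251 in KPAT and 253 to 969 in KAT, against 137 to 241 in KPT tumours. KAT 2 had the lowest level of each of these lists among KAT tumours, and it was also the lowest KAT tumour for Ccl5, Ccr7, Ccr6, Cxcl9, Ccl22 and Ccl8. Cxcr6 and Cxcl13 were instead lowest in KAT 1, with 11.9 and 405 normalized counts, against 13.9 and 607 in KAT 2, although KAT 1 had the highest B cell (8.96) and lymph node (7.49) levels. The shares of these lists called higher in KAT against KPT tumours were 16.7% (T cell), 83.3% (dendritic cell), 14.3% (B and plasma cell) and 25% (lymph node). All tested genes gave 15.6%, so the T cell and B cell counts were near that share. In KPAT against KPT tumours the dendritic cell list gave 16.7%, against 9.13% of all tested genes. The part of these cells, or of included lymph node, in the values was not tested.

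Ligands of CCR1 and related CC ligands rose in 0 of 5 cases in KPAT and in 3 of 5 (60%) in KAT against KPT tumours. All tested genes gave 9.13% higher in KPAT and 15.6% higher in KAT tumours. Ccl6 had 5322, 3846, 5273, 3606 and 1624 normalized counts in KPAT tumours 1 to 5 and 5579, 16070.0, 7258, 5911 and 4110.2 in KAT tumours 1 to 5, against 2423, 2595, 5026, 1457 and 4555 in KPT tumours 1 to 5. Ccl6 is a macrophage and neutrophil product of rodents. KAT 2 stood far above all other tumours, and the genotypes overlapped. Ccl6 rose in KAT against KPT tumours (log2 fold change of 1.25 ± 0.41, adjusted p = 0.0345) and had a log2 fold change of 0.32 ± 0.41 in KPAT against KPT tumours (adjusted p = 0.631). The KAT call ended without any one of KAT 2, KAT 3, KAT 4, KPT 1, KPT 2 or KPT 4 (adjusted p of 0.0518 to 0.0809; 0.00844 to 0.0809 over 29 alternatives). Ccl9 had 1408, 1245, 1159, 785 and 405 normalized counts in KPAT tumours 1 to 5 and 1318, 2444, 2949, 2249.9 and 1124 in KAT tumours 1 to 5, against 639, 669, 906, 626 and 1141 in KPT tumours 1 to 5. Ccl9, a rodent ligand of CCR1 beside Ccl6 on chromosome 11, was higher in 4 KAT tumours than in any KPT tumour, and KAT 5 was just below KPT 5. It rose in KAT against KPT tumours (log2 fold change of 1.29 ± 0.34, adjusted p = 0.0116) in all 29 alternatives. Ccl3 and Ccl4 (MIP-1 alpha and beta), in the same 138.9 kb cluster (GRCm38, chr11:83525778-83664683), were low and did not pass. Ccl3 ranged over 11.8 to 25.5 in KPAT, 14.2 to 36.5 in KAT and 5.15 to 42.5 in KPT tumours, and Ccl4 over 0 to 26.5 in KPAT, 2.14 to 16.4 in KAT and 2.57 to 24.3 in KPT tumours.

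Of 5 tested CXCR2 ligands, which attract neutrophils, 1 (20%) fell in each comparison with KPT tumours, and it was Cxcl2 both times. All tested genes gave 7.4% lower in KPAT and 13.3% lower in KAT tumours. The 5 genes lie within 146.6 kb of chromosome 5 (GRCm38, chr5:90759360-90905938). The promoter windows of Cxcl1, Cxcl2 and Cxcl3 are shown because the 3 neighbours carry the same motif match, and its part in their values was not tested. Each window runs from 250 bases before to 50 bases after the annotated start on the plus strand (RefSeq, GRCm38.p6), at chr5:90890995-90891294 for Cxcl1, chr5:90903649-90903948 for Cxcl2 and chr5:90785851-90786150 for Cxcl3. Capitals mark the match to the κB motif, the binding sequence of NF-κB.
Cxcl1: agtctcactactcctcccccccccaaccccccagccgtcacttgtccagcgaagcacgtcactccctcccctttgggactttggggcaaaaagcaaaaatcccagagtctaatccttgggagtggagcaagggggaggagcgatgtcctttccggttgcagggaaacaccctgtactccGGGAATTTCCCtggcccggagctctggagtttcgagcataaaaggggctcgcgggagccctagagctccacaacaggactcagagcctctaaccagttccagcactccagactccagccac
Cxcl2: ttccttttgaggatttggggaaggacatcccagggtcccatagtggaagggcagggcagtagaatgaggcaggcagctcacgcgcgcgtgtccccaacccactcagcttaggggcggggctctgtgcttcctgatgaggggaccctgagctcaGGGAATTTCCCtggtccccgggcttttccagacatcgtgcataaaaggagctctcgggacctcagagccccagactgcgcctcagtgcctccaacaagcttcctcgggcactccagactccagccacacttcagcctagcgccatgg
Cxcl3: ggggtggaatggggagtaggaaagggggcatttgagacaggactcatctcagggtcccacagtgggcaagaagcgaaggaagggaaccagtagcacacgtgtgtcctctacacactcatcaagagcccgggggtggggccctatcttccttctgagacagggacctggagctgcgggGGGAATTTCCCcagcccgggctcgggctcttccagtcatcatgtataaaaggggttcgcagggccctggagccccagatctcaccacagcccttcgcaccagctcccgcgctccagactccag
The same letters, GGGAATTTCCC, stand in all 3 windows. They hold a match on each strand, shifted by 1 base, and begin 71 bases before the start in Cxcl1, 97 in Cxcl2 and 73 in Cxcl3.

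Cxcl2 had 33.4, 80.8, 58.4, 37.9 and 36.7 normalized counts in KPAT tumours 1 to 5 and 86.7, 22.5, 28.5, 112 and 58.8 in KAT tumours 1 to 5, against 177, 201, 292, 67.7 and 185 in KPT tumours 1 to 5. Cxcl2 (MIP-2) was at least 67.7 in all KPT tumours, and KPAT 2, KAT 1 and KAT 4 were above the lowest of these, KPT 4. Cxcl2 fell by 1.82 ± 0.47 (adjusted p = 0.0178) in KPAT tumours and fell by 1.67 ± 0.47 (adjusted p = 0.0161) in KAT tumours on the log2 scale, both against KPT tumours. The call in KAT tumours ended with array weights (−1.19, adjusted p = 0.0574; 0.00373 to 0.0574 over 29 alternatives), and that in KPAT tumours held in all 29. Cxcl1 (KC) had a median of 204 in KPAT tumours (160.3 to 658), 89 in KAT tumours (52.4 to 220.3) and 167 in KPT tumours (52.9 to 211), and passed in no comparison. Its log2 fold change in KPAT against KPT tumours was 1.25 ± 0.52 (adjusted p = 0.114), opposite in sign to that of Cxcl2. Cxcl3 ranged over 12.8 to 85.9 in KPAT, 9.15 to 95.8 in KAT and 26.2 to 99.7 in KPT tumours. It shares 7.59% of the 31-base words of the Cxcl2 transcript, so a small part of their reads may be uncertain. Cxcl5 had 776, 1202, 545, 1296 and 849 normalized counts in KPAT tumours 1 to 5 and 1198, 313, 585, 1731 and 2213 in KAT tumours 1 to 5, against 4052, 803, 3089, 1017 and 1412 in KPT tumours 1 to 5. Cxcl5 (LIX), the CXCR2 ligand with the highest level per kilobase, was highest in KPT 1 and KPT 3 and overlapped between all genotypes. Its log2 fold change was −0.94 ± 0.53 in KPAT (adjusted p = 0.238) and −0.82 ± 0.53 in KAT against KPT tumours (adjusted p = 0.257). Cxcl15, a mouse chemokine of airway epithelium, had at most 23.7 normalized counts in all tumours but KPT 5, with 71.2. Of 8 neutrophil markers 0 were higher and 1 (12.5%) lower in KPAT against KPT tumours, where 9.13% and 7.4% of all tested genes were. In KAT against KPT tumours 1 was higher and 1 lower (12.5% each), where 15.6% and 13.3% of all tested genes were. The summed level of the neutrophil markers was 533 to 7297 in KPAT and 1088 to 6197 in KAT tumours, against 3800.0 to 17765 in KPT tumours. Their part in the CXCR2 ligand values was not tested.

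Promoter windows were found for 33 of 45 members. The κB motif was matched in 7 of them (Ccl20, Ccl9, Ccr1, Cxcl1, Cxcl10, Cxcl2 and Cxcl3), and in 8.46% of 32851 windows of the same length. The interferon-stimulated response element was matched in 3 (Ccl19, Cxcl10 and Cxcl14) and in 3.44% of all windows, and the AP-1 motif TGANTCA in 5 (Ccl28, Ccl9, Ccr4, Cxcl10 and Cxcl9) and in 7.81%. Both strands were searched, and a match is a description of the letters, not a site. The windows of Ccr2 and Ccl12 are shown as those of 2 members that rose in both comparisons with KPT tumours. Neither holds a match of the 3 motifs, which says only that these letters are not in the window. They lie on the plus strand at chr9:124101933-124102232 for Ccr2 and chr11:82101595-82101894 for Ccl12 (RefSeq, GRCm38.p6). In GENCODE the Ccr2 gene starts at chr9:124101950, so most of its window lies inside the gene. The bases before that GENCODE start were mostly not searched.
Ccr2: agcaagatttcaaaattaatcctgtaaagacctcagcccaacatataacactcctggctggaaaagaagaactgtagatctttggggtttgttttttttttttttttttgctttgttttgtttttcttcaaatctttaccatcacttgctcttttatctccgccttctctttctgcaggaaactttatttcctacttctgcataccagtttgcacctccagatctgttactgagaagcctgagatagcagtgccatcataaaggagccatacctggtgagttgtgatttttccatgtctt
Ccl12: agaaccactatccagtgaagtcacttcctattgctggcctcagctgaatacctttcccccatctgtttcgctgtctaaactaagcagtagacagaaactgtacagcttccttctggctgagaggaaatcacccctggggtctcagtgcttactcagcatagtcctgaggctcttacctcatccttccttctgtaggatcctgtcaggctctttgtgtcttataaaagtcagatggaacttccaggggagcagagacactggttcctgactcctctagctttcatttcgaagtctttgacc

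Chemokines of epithelium and stroma gave 1 call of 5 tested in each comparison with KPT tumours, Cxcl17. Cxcl17 had 827, 817, 373, 452 and 599.5 normalized counts in KPAT tumours 1 to 5 and 612, 354, 447, 656 and 772 in KAT tumours 1 to 5, against 2447, 791, 611, 1549 and 1698 in KPT tumours 1 to 5. Cxcl17, a chemokine of mucosal epithelia, was highest in KPT 1, KPT 4 and KPT 5, while KPT 2 and KPT 3 overlapped the other genotypes. It fell by 1.10 ± 0.36 (adjusted p = 0.0461) in KPAT tumours and fell by 1.20 ± 0.36 (adjusted p = 0.0215) in KAT tumours on the log2 scale, both against KPT tumours. The KPAT call ended in 16 of 29 alternatives, among them leaving out any one of KPAT 2 to 5, KAT 1, 3, 4 or 5 or KPT 1, 4 or 5 (adjusted p of 0.0512 to 0.115; 0.00561 to 0.129 over all), and the KAT call ended without KPT 1 (0.055; 0.00146 to 0.0785 over all). Ductal markers were lower in 1 of 8 cases in KPAT and 4 of 8 in KAT against KPT tumours, with summed levels of 147684 to 202344 in KPAT and 131933 to 215553 in KAT, against 210451 to 359872 in KPT tumours. Intestinal markers were lower in 3 of 7 cases in each comparison, with summed levels of 8296 to 25910.0 in KPAT and 7510.0 to 45317 in KAT, against 21614 to 94318 in KPT tumours. All tested genes gave 7.4% lower in KPAT and 13.3% lower in KAT against KPT tumours. The part of the ductal and intestinal markers in the Cxcl17 values was not tested.

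Cxcl14 had 3296, 2566, 934, 2100.2 and 731 normalized counts in KPAT tumours 1 to 5 and 1602, 2424, 2805, 2176 and 2227 in KAT tumours 1 to 5, against 1584, 1082, 721, 2646 and 426 in KPT tumours 1 to 5. Cxcl14, made by epithelium and fibroblasts, overlapped between all genotypes. Its log2 fold change was 0.62 ± 0.46 in KPAT (adjusted p = 0.375) and 1.05 ± 0.46 in KAT against KPT tumours (adjusted p = 0.102). The KAT value passed without KPT 4 alone (1.37, adjusted p = 0.0328; 0.0328 to 0.234 over 29 alternatives). Cx3cl1 had 2784, 3634, 2891, 2188 and 3064 normalized counts in KPAT tumours 1 to 5 and 2288, 1863, 2507, 2664 and 2609 in KAT tumours 1 to 5, against 3157, 3067, 2626, 2589.8 and 3072 in KPT tumours 1 to 5. Cx3cl1 (fractalkine), the ligand of Cx3cr1, was the steadiest member, and its values overlapped in every comparison while its receptor rose in both comparisons with KPT tumours. The log2 fold change of Cx3cl1 was −0.01 ± 0.13 in KPAT (adjusted p = 0.972) and −0.29 ± 0.13 in KAT against KPT tumours (adjusted p = 0.118). Cxcl16, the membrane-bound ligand of Cxcr6, ranged over 1156 to 2327 normalized counts in KPAT, 1209 to 2663 in KAT and 1445 to 2189 in KPT tumours, with a log2 fold change of −0.13 ± 0.24 in KAT against KPT tumours (adjusted p = 0.714). A share of 18.3% of its exons lies opposite Zmynd15, and the strand setting of the counting is not given in the sources used here. Cxcl12 (SDF-1), the fibroblast ligand of CXCR4, had medians of 451 in KPAT tumours, 989.5 in KAT tumours and 505 in KPT tumours, and KPAT 5 reached 2806. Cxcr4, its receptor on most leukocytes, had medians of 281 in KPAT, 408 in KAT and 194 in KPT tumours. Neither passed in any comparison.

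Mucosal and skin chemokines gave no call in the 4 tested cases. Ccl20, the ligand of Ccr6, had a median of 43.5 in KPAT tumours, 21.4 in KAT tumours and 21.4 in KPT tumours, with a log2 fold change of −0.32 ± 0.73 in KAT against KPT tumours (adjusted p = 0.773). Ccl25, a gut homing ligand, ranged over 109 to 202 in KPAT, 101 to 192 in KAT and 89.7 to 306 in KPT tumours. Ccl28, a mucosal ligand of CCR10, ranged over 2.12 to 109 in KPAT, 33.6 to 907 in KAT and 1.72 to 92.9 in KPT tumours, and its top value was in KAT 1. The intestinal list level was 11.88 in KAT 1 and 11.89 in KPT 1, and Ccl28 had 907 and 82.1 normalized counts in these tumours. The part of the intestinal list in the Ccl28 values was not tested. Ccl27a, a skin chemokine, ranged over 96 to 117 in KPAT, 50.3 to 119 in KAT and 84.1 to 176 in KPT tumours, and its counts are uncertain because it shares up to 37.7% of its 31-base words with a near copy.

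The 5 members under the minimum level were 2 lymphoid homing ligands and 3 receptors of lymphocytes and dendritic cells. Cxcr3, the receptor of Cxcl9, had 15 reads over the KPAT tumours, 124 over the KAT tumours and 6 over the KPT tumours. Ccr4, the receptor of Ccl17 and Ccl22, had 1 read over the KPAT tumours, 37 over the KAT tumours and 13 over the KPT tumours. Ccr9, the gut homing receptor, had 29 over the KPAT tumours, 99 over the KAT tumours and 24 over the KPT tumours. Ccl19, a ligand of CCR7, had 17 reads over the KPAT tumours, 33 over the KAT tumours and 3 over the KPT tumours, and Ccl21a, the other CCR7 ligand, had 2 over the KPAT tumours, 7 over the KAT tumours and 28 over the KPT tumours. Both ligand counts are uncertain, since Ccl19 shares up to 58.8% and Ccl21a up to 80.6% of their 31-base words with near copies.

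KPAT and KAT tumours were not separated by the main test in any member. The smallest adjusted p among the members were those of Ccl8, Ccr7, Ccl22, Ccl5 and Ccr6, singled out after their values were seen. The log2 fold change of Ccl8 in KPAT against KAT tumours was −2.36 ± 0.53 (adjusted p = 0.128), with 4 KAT tumours between 134 and 491 and all KPAT tumours at or below 50.5. For the other 4 it lay between −2.79 (Ccl22, adjusted p = 0.248) and −2.33 (Ccr7, adjusted p = 0.248). Ccl5 had −2.33 (adjusted p = 0.253) and Ccr6 −2.44 (adjusted p = 0.284). In these genes KPAT values overlapped KPT values, and KAT 2 was the lowest KAT tumour. DESeq2 called the same 5 lower in KPAT tumours, with adjusted p between 0.000115 (Ccl8) and 0.029 (Ccr6), and limma with array weights called these and 2 more, Cxcr6 (−2.32, adjusted p = 0.0379) and Cxcl1 (1.73, adjusted p = 0.0464). Leaving out KAT 2 alone, limma called Ccl8 (−2.81, adjusted p = 0.0245; 0.000115 to 0.52 over 29 alternatives). Of the 40 members 9 had a positive log2 value in KPAT against KAT tumours, and none of the 10 receptors did. Of all 16648 tested genes 8264 had a positive value. Ccr6 and Cxcr6 among the receptors were tested only because of their KAT values. The median was −0.42 for the members and −0.0 for all tested genes. The members' median lay between −0.64 (without KPAT 1) and −0.28 (without KAT 1) with 1 tumour left out.

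Ligands and receptors were also compared across the 15 tumours after the mean of each genotype had been subtracted from their log2 levels. Of 11 listed pairs 8 had both genes tested, and 3 passed at an adjusted p of 0.05 (permutation within genotypes, 100000 resamples, Benjamini-Hochberg over the 8 pairs). Ccl2 and Ccr2 had r = 0.72 (adjusted permutation p = 0.0269) and Spearman rho = 0.64 (adjusted permutation p = 0.0712). Ccl7 and Ccr2 had r = 0.76 (adjusted permutation p = 0.0269) and rho = 0.61 (adjusted permutation p = 0.0712), and Cxcl16 and Cxcr6 had r = 0.73 (adjusted permutation p = 0.0269) and rho = 0.71 (adjusted permutation p = 0.0657). Without the 2 tumours farthest from the median of the ligand, r was 0.67, 0.75 and 0.61. These tumours were picked before the genotype means were subtracted. For Ccl2 and Ccl7 they were KPT 3 and KPT 2, of the genotype with the lowest values. Tumours far from their own genotype mean, such as KAT 3 and KAT 4 for Ccl7, stayed in. For these 2 pairs the step therefore does not show that r holds within genotypes. No pair was left past the threshold without KPAT 5 or KAT 4 in turn, and 1 was left without KAT 3 or KPT 5. Cx3cl1 and Cx3cr1 had r = 0.34 (adjusted permutation p = 0.306) but rho = 0.76 (adjusted permutation p = 0.0286). Cxcl5 and Cxcr2 had r = 0.53 (adjusted permutation p = 0.0533), Ccl20 and Ccr6 0.56 (0.108) and Cxcl13 and Cxcr5 −0.45 (0.138), whereas Cxcl12 and Cxcr4 had −0.01. Tumours share both genes of a pair with their cell content, whose part was not tested.

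**Figure D5:**
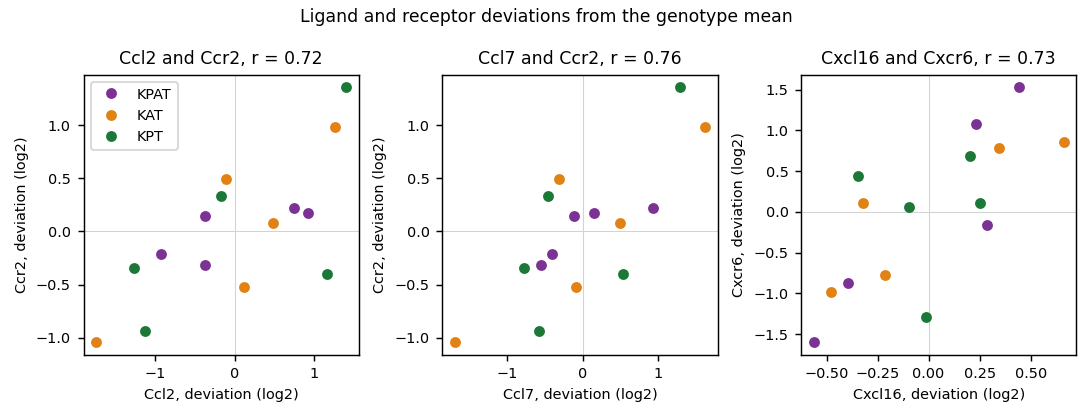
Deviation of the ligand (horizontal axis) and of its receptor (vertical axis) from the genotype mean, in log2 units, for the 3 pairs that passed, with 1 point per tumour coloured by genotype (15 tumours). The receptor is higher in tumours with more ligand in each panel, with r of 0.72, 0.76 and 0.73.

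Other genes of the chemokine system were read from lists of related molecules. Of 9 tested chemokines and receptors outside the naming pattern, 0 were higher and 2 (22.2%) lower in KPAT against KPT tumours, and 2 were higher and 2 lower (22.2% each) in KAT against KPT tumours. All tested genes gave 9.13% higher and 7.4% lower in the first comparison and 15.6% and 13.3% in the second. Mif, a chemokine-like cytokine, fell in both, to 1961 ± 276 normalized counts in KPAT tumours and 2056 ± 1059 in KAT tumours, against 4329 ± 1614 in KPT tumours (adjusted p = 0.0249 for KPAT and 0.0134 for KAT tumours). Ccrl2, a non-signalling chemerin receptor, fell in KPAT tumours (log2 fold change of −1.55 ± 0.39, adjusted p = 0.0164), and Ppbp, a platelet CXCR2 ligand, fell in KAT tumours (log2 fold change of −2.10 ± 0.74, adjusted p = 0.0439). The scavenging receptors Ackr4 (log2 fold change of 2.47 ± 0.55, adjusted p = 0.00469) and Ackr1 (log2 fold change of 1.79 ± 0.59, adjusted p = 0.0336) rose in KAT tumours.

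Of 25 tested signalling genes downstream of the receptors, 4 (16%) were higher and 2 (8%) lower in KPAT against KPT tumours, where 9.13% and 7.4% of all tested genes were. In KAT against KPT tumours 11 (44%) were higher and 3 (12%) lower, where 15.6% and 13.3% of all tested genes were. Rgs1, which ends G protein signalling in lymphocytes, fell to 28.4 ± 19.1 normalized counts in KPAT tumours, against 374 ± 226 in KPT tumours (log2 fold change of −3.62 ± 0.72, adjusted p = 0.0062), and Rgs2 rose to 2382 ± 615, against 903 ± 322 (log2 fold change of 1.42 ± 0.25, adjusted p = 0.00344). Rgs19, Gng2 and Grk5 also rose and Gnb2 fell in KPAT tumours, with log2 fold changes of 1.05, 0.83, 0.87 and −0.37. In KAT tumours the leukocyte genes Rac2 (log2 fold change of 1.71 ± 0.27, adjusted p = 0.000621), Plcb2 (log2 fold change of 2.26 ± 0.37, adjusted p = 0.000757), Vav1 (log2 fold change of 1.68 ± 0.30, adjusted p = 0.00128) and Dock2 (log2 fold change of 1.89 ± 0.34, adjusted p = 0.0013) rose, and so did Gng2 (1.06), while Gnb2 fell (−0.43, adjusted p = 0.00159). Rgs1 and Gnai3 also fell in KAT against KPT tumours, and for both genes the values of these genotypes overlapped. The fall of Rgs1 was therefore not limited to KPAT tumours. Macrophage markers were higher in KAT against KPT tumours in 7 of 10 cases, and their part in these values was not tested. Of 8 tested proteases that cut or shed chemokines, 3 (37.5%) rose in each comparison with KPT tumours. All tested genes gave 9.13% higher in KPAT and 15.6% higher in KAT tumours. The 3 proteases were Mmp2 (1.74 in KPAT and 1.88 in KAT tumours), Mmp9 (1.82 in KPAT and 2.40 in KAT tumours) and Adam17 (0.45 in KPAT and 0.50 in KAT tumours), the sheddase of fractalkine. Of 21 tested inducers 2 (9.52%) rose in each comparison with KPT tumours and none fell, a share near that of all tested genes in KPAT (9.13%) and below it in KAT tumours (15.6%). They were Csf1, the macrophage growth factor (log2 fold change of 1.10 ± 0.23, adjusted p = 0.00803 in KPAT and log2 fold change of 1.35 ± 0.23, adjusted p = 0.0011 in KAT tumours), and Csf2, the granulocyte and macrophage growth factor (log2 fold change of 2.51 ± 0.72, adjusted p = 0.0285 in KPAT and log2 fold change of 2.98 ± 0.72, adjusted p = 0.00762 in KAT tumours). None of these lists had a call in KPAT against KAT tumours with limma, where 8 of all 16648 tested genes passed and 1798 had an unadjusted p under 0.05.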

How the data were processed

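TruSeq RNA libraries of the 15 tumours were read on a HiSeq4000 (per the labels' protocols). Alignment was to mm10 (GRCm38) with HISAT2 2.0.4, a fact taken from the submitters' processing notes. Nothing in the sources used here names the counter, whether it used strand, or the scaling. The authors deposited a signal per gene, equal to reads divided by a factor for each library: 100% of the values came out as whole reads within 0.01. To give normalized counts, all values were multiplied by 19.478, which is how many reads 1 deposited unit stands for in a typical library (geometric mean). Genes were mapped from Ensembl IDs to symbols (20574 of 20636).

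Genes with a mean of at least 10 were tested with limma 3.58.1 (R 4.3.3) on log2(normalized count + 1), with genotype means over all 15 libraries, a trended prior, 2-sided p-values and Benjamini-Hochberg adjustment over 16648 genes. Fold changes on this scale understate the changes of low genes. The procedure was tested on simulated data. edgeR 4.0.16 and DESeq2 1.42.0 on the recovered reads, other scalings, minimums and pseudocounts, array weights, a replicate block and each tumour left out were alternatives. Promoter windows came from RefSeq (GRCm38.p6), and 31-base words and exon overlap from GENCODE transcripts (GRCm38). The total reads of 14696138 to 26248484 per tumour limit the precision of members with few reads, and no value carries molecular identifiers.

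The members and gene lists were chosen with earlier results of these data known, and 1 further gene of the naming pattern is not reported here. Every called member is named, with values in each tumour for the first 10 by p in a comparison and for the 6 highest per kilobase. Members without a call have fold changes where they are among those 6, partner a called gene, or were chosen after their values were seen (Ccl5, Ccl8, Ccl11, Ccl22, Cxcl1 and Cxcl13 against KPT tumours, Ccl11 and the 5 smallest p in KPAT against KAT tumours). The other members without a call are accounted for by name, most with a range or median.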

Additional observations from a re-analysis of the deposited data

Results flagged for a closer look

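In 12 of 120 groups of 5 tumours, 1 tumour stood apart from the other 4, its gap to the nearest of them divided by the whole range being above 0.71. For normally distributed values chance gives about 1 in 20. The values here were counts on the linear scale, and every tumour that stood apart was a high one. The 12 groups can therefore not be read as more than chance gives. KPT 5 was the high tumour in 4 of the groups: Cxcl10 with 131 normalized counts (next 40.1), Cxcl13 with 890.4 (next 153), Cxcl15 with 71.2 (next 10.3) and Cxcl9 with 19.1 (next 4.89). KPT 3 was high for Ccl12, with 37.8 (next 16.5).

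Among KAT tumours, KAT 1 was high for Ccl28, with 907 (next 138), and for Cxcl15, with 15.5 (next 4.28). KAT 2 had 16070.0 for Ccl6 (next 7258), and KAT 4 had 251 for Ccl24 (next 87.7). Among KPAT tumours, KPAT 1 was high for Ccr10, with 41.3 (next 10.6), and for Cxcl13, with 1385 (next 195), and KPAT 5 for Cxcl12, with 2806 (next 916).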

How the results depend on the processing

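The count of members called in KPAT against KPT tumours was 10, and 7 to 10 with 1 tumour left out. It was 6 with KPT 1 and KAT 1 left out together, a pair chosen after seeing the data for its intestinal marker levels. In KAT against KPT tumours 19 were called, and 13 to 22 with 1 tumour left out. In KPAT against KAT tumours 0 were called, 7 with array weights, 5 with DESeq2 and 0 to 1 with 1 tumour left out. Over all genes, KPAT against KPT tumours gave 2752 calls, 1832 with only the 2 compared genotypes and 1687 to 2895 with 1 tumour left out, the fewest without KPAT 2. KAT against KPT tumours gave 4805, and 3124 with KAT 1 and KAT 3 left out together, chosen after seeing the data for their lymph node list. KPAT against KAT tumours gave 8, 17 with quantile scaling, 15 with the 2 compared genotypes, 515 with array weights, 284 with DESeq2 and 7 to 45 with 1 tumour left out, the most without KAT 2. The count of ligand and receptor pairs past the threshold was 3, 0 with quantile scaling and 0 to 4 with 1 tumour left out. The cause of these changes was not tested.

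Alternatives were run for the called members and for those without a call whose fold change is given, and of the latter 4 changed direction. Cx3cl1 in KPAT against KPT tumours turned to 0.05 with quantile scaling, 0.00 with array weights, 0.02 with edgeR, 0.01 with edgeR and no minimum and 0.02 with KPT 1 and KAT 1 left out together, and lay between −0.09 and 0.09 with 1 tumour left out. Ccl5 in KPAT against KPT tumours turned to 0.01 with KPT 1 and KAT 1 left out together, and lay between −0.67 and 0.14 with 1 left out. Cxcl16 in KAT against KPT tumours turned to 0.20 with array weights, 0.05 with KPT 1 and KAT 1 left out together and 0.14 with KAT 1 and KAT 3 left out together. Ccl20 in KAT against KPT tumours turned to 0.46 with array weights, and lay between −0.77 and 0.19 with 1 left out. Genes under a minimum mean of 50 gave no value in that alternative.

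The correlations of deviations between same-numbered tumours of the genotypes lay between −0.209 and 0.246. Differently numbered tumours were not compared, so this range cannot show whether the replicate numbers pair the tumours. With the replicate block 9, 18 and 0 members and 2248, 4313 and 7 genes were called in KPAT against KPT, KAT against KPT and KPAT against KAT tumours. The calls of Ccl17 in KPAT (adjusted p = 0.0538) and of Cxcl9 in KAT against KPT tumours (0.0541) ended under the block. Low read counts limit several members, among them Ccr6, Cxcr6, Ccl4, Ccr10, Cxcl15 and the 5 members that were not tested. Some called members also had few reads in KPT tumours 1 to 5. Cxcl9 had 5, 3, 4, 4 and 22, Ccl7 had 7, 5, 5, 17 and 29, and Ccl22 had 9, 5, 2, 21 and 41.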
